A study of Mus musculus with 28 samples.

Results

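The 9 genes described here are hosts of small nucleolar RNAs (snoRNAs): *Gas5*, *Snhg1*, *Snhg3*, *Snhg4*, *Snhg5*, *Snhg6*, *Snhg8*, *Snhg11*, and *Snhg12*. They were taken by symbol and joined by gene identifier across the RNA-seq values, the chromatin RNA counts, and the FACT peak lists. Of the 9 genes, 8 have a value in RNA-seq, where 15384 genes are listed, and all 9 have a row in the chromatin RNA table, which lists 27179. *Snhg3* has no RNA-seq value and is described only from chromatin RNA and peaks.

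A snoRNA host gene is transcribed by RNA polymerase II and spliced, and most of its snoRNAs are trimmed out of the removed introns. C/D box snoRNAs guide 2′-O-methylation of ribosomal RNA and H/ACA box snoRNAs guide pseudouridylation, each in a complex with its own core proteins. The spliced exons of most hosts studied here encode no known protein, and several are cleared by nonsense-mediated decay when they are translated, so that the level of a spliced host and the level of its snoRNAs can part.

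RNA-seq was performed on E14 cells, a mouse embryonic stem (ES) cell line, that received lentiviral vectors with either a scramble shRNA (control, n = 4) or a combination of 2 shRNAs against *Ssrp1* (*Ssrp1* KD, n = 4). *Ssrp1* encodes a subunit of the histone chaperone FACT, whose other subunit is SUPT16. Both groups were selected with puromycin (2 µg/ml) for 24 h from 48 h after transfection, and ERCC spike-in RNA was present in these 8 libraries. Chromatin RNA of E14 cells (n = 2) and SSRP1 and SUPT16 ChIP-seq peaks (2 biological replicates per subunit, called together) were also used. Pooled means include a table with early neural precursor cells (NPCs, n = 3), which were derived from E14 embryoid bodies given 1 µM retinoic acid for 4 d and then grown for 3 d with no LIF.

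The libraries hold 4602278 to 6680919 reads on listed genes in the control and 9433193 to 19856032 in the KD, so the KD values rest on more reads. Member genes were covered by 41 to 732 reads per control library and 125 to 2091 per KD library. The *Ssrp1* value was 222.6 to 260.7 in the control and 24.1 to 28.9 in the KD, and the groups did not overlap. The RNA of the other subunit, *Supt16*, was higher in the KD, at 480.7 to 529.4 beside 295.8 to 345.9 in the control. For the SUPT16 protein, the paper reports a depletion by mass spectrometry. Marker sums differed between the groups: the 10 ES cell markers summed to 1648 to 1769 in the control and 4732 to 5223 in the KD, the 4 endoderm markers with a value to 35.1 to 52.4 and 10.3 to 13.3, and the 4 fibroblast markers with a value to 43.8 to 57.8 and 12.1 to 13.9. The 6 trophectoderm markers summed to 988.4 to 1334 in the control and 767.8 to 814.7 in the KD, the 2 mesoderm markers with a value to 11.5 to 16.6 and 2.96 to 4.53, and the 6 neural markers with a value to 99.1 to 120.1 and 147.6 to 159.7. In the neural sum Tubb3 was higher in the KD (mean 33.6 in the control and 108.3 in the KD), and the other 5 had lower means in the KD. The markers Dcx, Lum, Dcn, Foxa2, T, and Mixl1 have no value. The part of these differences in the results below was not tested, and in bulk RNA fewer cells of a type and less RNA per cell cannot be told apart.

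The hosts differ widely in level. Per kb of listed exon, the library-size-normalised value in the control was highest for *Snhg1*, at 169.2 ± 11.2 (SD, n = 4), above 97.8% of all genes with a value. *Snhg5* (46.2 ± 3.14), *Snhg12* (37.5 ± 4.45), and *Gas5* (37.3 ± 2.72) followed, and the ranges of neighbours in this order overlapped. *Snhg6* (22.6 ± 3.58) was next and stood apart from *Gas5*. Before division by length the mean of *Gas5* (95.3) was above that of *Snhg1* (80.5), and its listed length of 2554 bp includes a first exon that holds 5 snoRNAs, so its place in the order per kb is uncertain. *Snhg8* (11.3 ± 1.65) and *Snhg4* (11 ± 0.406) could not be ordered, and *Snhg11*, whose listed exons are the longest at 5864 bp, was lowest at 3.88 ± 0.443. In the KD, *Snhg1* (193.4 ± 8.60) and *Snhg5* (62.3 ± 4.09) kept the first 2 places, and *Gas5* (48.5 ± 1.34), *Snhg6* (43.3 ± 3.35), and *Snhg12* (42.7 ± 1.75) followed with overlapping ranges between neighbours. *Snhg8* stood at 28.8 ± 3.77 in the KD and no longer overlapped *Snhg4* at 11.4 ± 1.38.

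To ask how the hosts differed after the *Ssrp1* KD, log2 values were compared between the KD and the control with limma over all 15384 genes. A gene was called at an absolute log2 fold change above 1 with an adjusted p below 0.01. With this rule 28.6% of all genes were called, 8.07% higher and 20.6% lower in the KD. Of the 8 hosts with a value, 1 was called higher and 0 lower (1 had an unadjusted p below 0.05 and a lower value, and edgeR and DESeq2 on recovered reads also called 0 lower). By the adjusted p alone, 5 were higher and 1 lower, beside 35.4% and 37.3% of all genes (72.8% in either direction). The median log2 fold change was 0.29 over the 8 hosts and -0.03 over all genes. All KD libraries lay above all control libraries for 4 hosts and below them for 1, where 35.8% and 37.5% of all genes are apart in these directions.

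Among the hosts of C/D box snoRNAs, *Gas5* (chr1:161035166-161038537, plus strand) is the growth arrest-specific transcript that accumulates in arrested cells. Its values were 99.5, 96.6, 85.2, and 100.1 in the control and 126.0, 120.9, 127.7, and 121.2 in the KD. The groups did not overlap, and the log2 fold change was 0.38 ± 0.061 (SE, adjusted p = 2.84e-06, limma). *Snhg5* (chr9:88521052-88522897, minus strand), host of a pair of SNORD50 snoRNAs, was measured at 49.8, 46.5, 48.1, and 42.4 in the control and 67.5, 62.4, 64.4, and 57.6 in the KD. These groups did not overlap either, with a log2 fold change of 0.43 ± 0.072 (adjusted p = 5.15e-06, limma). Both genes were thus higher in every KD library on this scale, by less than the fold threshold. The values of all genes together also sum to more in the KD libraries (1137293 to 1182584) than in the control libraries (825584 to 909417). With quantile normalisation the fold changes were 0.02 for *Gas5* and 0.16 for *Snhg5*, so rises of this size depend on the scaling.

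*Snhg6* (chr1:9942025-9944118, minus strand), host of *Snord87*, showed the next larger difference. Its values were 7.08, 9.81, 10.4, and 9.44 in the control and 17.3, 19.5, 17.5, and 16.2 in the KD. All KD libraries were above all control libraries, and the log2 fold change of 0.91 ± 0.13 (adjusted p = 3.82e-07, limma) lay just under the threshold. *Snhg1* (chr19:8723487-8726326, plus strand), the host of 8 C/D box snoRNAs from SNORD25 to SNORD31 and *Snord22*, was measured at 87.8, 75.0, 78.9, and 80.4 in the control and 95.5, 92.7, 93.8, and 86.2 in the KD. The lowest KD library lay below the highest control library. The log2 fold change of *Snhg1* was 0.19 ± 0.063 (adjusted p = 0.00714, limma), and it turned to -0.14 (adjusted p = 0.023) with quantile normalisation. The adjusted p of limma was 0.0312 without the trend. It was 0.0137 to 0.0301 when control replicate 2, 3, or 4 or KD replicate 1, 2, or 3 was left out. The place of *Snhg1* among the hosts higher by the adjusted p alone thus depends on the fit.

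Among the hosts of H/ACA box snoRNAs, *Snhg8* (chr3:123507552-123508336, minus strand) rose and was the called member. It had values of 10.5, 8.61, 7.35, and 9.16 in the control and 26.4, 21.4, 23.1, and 19.5 in the KD. The KD libraries were all above the control libraries, the ratio of the means was 2.54, and the log2 fold change was 1.30 ± 0.13 (adjusted p = 4.23e-10, limma). *Snhg8* is listed as 1 exon of 785 bp that holds the whole of *Snora24*. No source used here says how reads in that stretch were shared between the rows, so host and snoRNA cannot be told apart in this value.

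*Snhg11* (chr2:158375638-158386145, plus strand), a transcript best known from neurons, went the other way on the library-size scale. Its values were 19.1, 23.4, 25.1, and 23.5 in the control and 15.7, 15.0, 15.6, and 15.9 in the KD. No KD library reached a control library, and the log2 fold change was -0.53 ± 0.10 (adjusted p = 4.7e-05, limma), but 0.47 (adjusted p = 0.129) with the spike-in scaling. *Snhg4* (chr18:35553410-35558316, plus strand), host of *Snora74a*, was measured at 12.8, 12.7, 12.0, and 13.1 in the control and 15.4, 12.5, 12.1, and 12.2 in the KD. The groups overlapped, and the log2 fold change of 0.04 ± 0.12 (adjusted p = 0.786, limma) became -0.04 (adjusted p = 0.772) without KD replicate 1, the library with the value of 15.4.

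*Snhg12* (chr4:132308678-132311024, plus strand) hosts both kinds, 3 H/ACA box snoRNAs and the C/D box snoRNA *Snord99*. Its values were 26.3, 22.7, 19.7, and 22.2 in the control and 24.5, 26.0, 26.2, and 27.0 in the KD. The highest control library lay inside the KD range, and the log2 fold change of 0.19 ± 0.095 did not pass the test (adjusted p = 0.0676, limma).

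**Figure D1:**
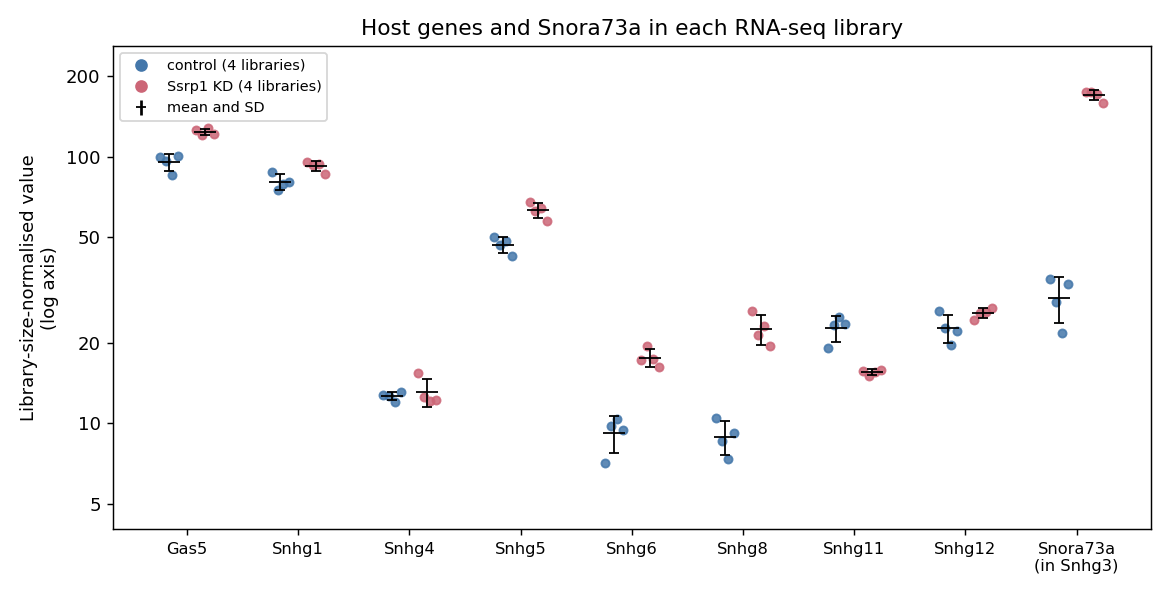
Library-size-normalised value (log axis) of the 8 host genes with a value and of *Snora73a*, with 1 point per library for the control (blue, n = 4) and the *Ssrp1* KD (red, n = 4) and the mean ± SD in black. The groups are apart for *Gas5*, *Snhg5*, *Snhg6*, *Snhg8*, and *Snhg11* and overlap for *Snhg1*, *Snhg4*, and *Snhg12*, and *Snora73a* goes from 29.6 to 170.0 on average.

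The scaling moves these values together. TMM scaling repeated the fold changes of the library-size values for all 8 hosts, so it adds no separate check. With the deposited spike-in scaling the median log2 fold change over all 15384 genes was 0.95, compared with -0.03 with library size, and 7394 genes were called higher and 1082 lower in place of 1242 and 3163. On that scale 7 of the 8 hosts were called higher, from 1.02 for *Snhg4* to 2.28 for *Snhg8*, and *Snhg11* had a fold change of 0.47. Relative to the median of all genes, the order was nearly kept: with library size and spike-ins, *Snhg8* stood at 1.33 and 1.33, *Snhg6* at 0.95 and 0.94, *Snhg5* at 0.46 and 0.49, *Gas5* at 0.41 and 0.45, and *Snhg11* at -0.49 and -0.48. Quantile normalisation lifted the low hosts, with fold changes of 1.77 for *Snhg8* and 1.40 for *Snhg6* and a second call for *Snhg6*, and lowered the high ones, with 0.02 for *Gas5*.

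**Figure D2:**
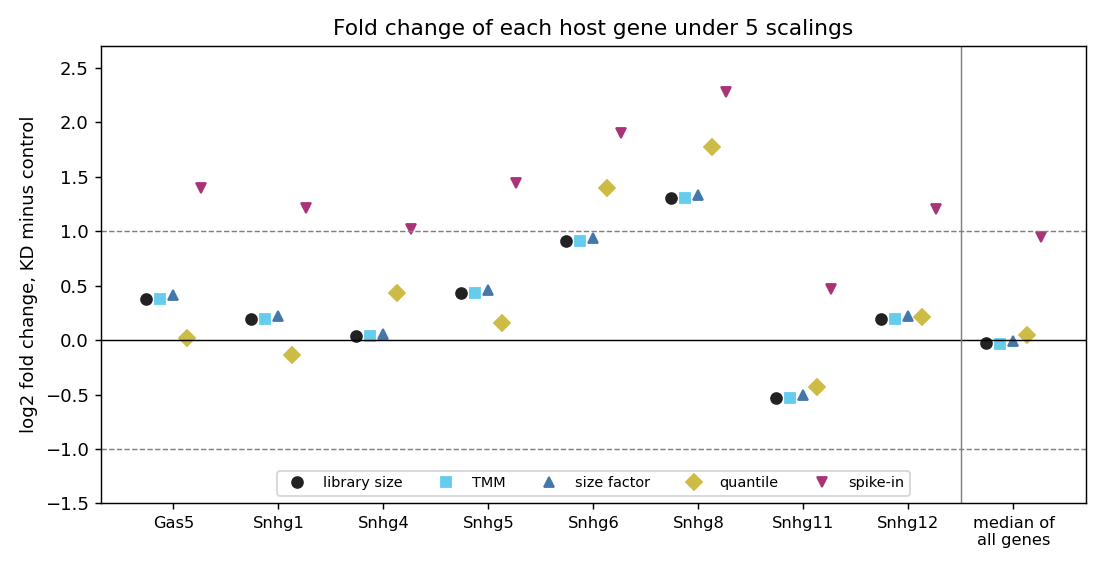
Log2 fold change (KD minus control) of the 8 hosts under 5 scalings, with the median over all genes at the right and dashed lines at -1 and 1. Library size and TMM gave the same host fold changes. The spike-in scaling lifts every host by about as much as the median of all genes, to 0.95, and *Snhg11* lies below that median under every scaling shown, while its sign turns to 0.47 with spike-ins and that of *Snhg1* turns to -0.14 with quantile normalisation.

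RefSeq places 29 snoRNAs inside the 9 hosts on the same strand, 20 of the C/D box and 9 of the H/ACA box kind. *Gas5* and *Snhg1* hold 8 each, *Snhg12* 4, *Snhg3*, *Snhg5*, and *Snhg11* 2 each, and *Snhg4*, *Snhg6*, and *Snhg8* 1 each. Only 11 of the 29 have a row of their own in the chromatin RNA table, and 6 of these have an RNA-seq value. Of these 6, 1 was called higher and 0 lower, beside 8.07% and 20.6% of all genes. At an unadjusted p below 0.05, and by edgeR and DESeq2, 0 were lower. By the adjusted p alone 2 were higher and 0 lower, beside 35.4% and 37.3% of all genes. The median log2 fold change of the 6 was 0.46, beside 0.45 over all 47 snoRNAs with a value. Of these 47, 12 were called higher and 0 lower, with the same shares of all genes. All 6 lie outside the listed exons of their hosts, so reads of an unspliced host can fall in these rows. Their RNA-seq values are therefore uncertain as levels of the mature snoRNA.

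*Snora73a*, an H/ACA box snoRNA also known as U17 that acts in the processing of the 18S ribosomal RNA precursor, rose the most. It lies in an intron of *Snhg3*, the host that has no value. Its values were 34.7, 28.4, 21.9, and 33.2 in the control and 174.4, 175.0, 171.8, and 158.7 in the KD, from 122 to 255 and 1411 to 2985 reads. The groups were far apart, with a log2 fold change of 2.52 ± 0.093 (adjusted p = 1.41e-18, limma) and a range of 2.39 to 2.61 when 1 library was left out. *Snhg3* holds a near-identical copy, *Snora73b*, that has no RNA-seq value. Both are shown 5′ to 3′ from the mouse GRCm38.p6 assembly of RefSeq, with the ACA box before the 3′ end in capitals, because reads from them can be confused.
Snora73a (chr4:132352775-132352979, minus strand): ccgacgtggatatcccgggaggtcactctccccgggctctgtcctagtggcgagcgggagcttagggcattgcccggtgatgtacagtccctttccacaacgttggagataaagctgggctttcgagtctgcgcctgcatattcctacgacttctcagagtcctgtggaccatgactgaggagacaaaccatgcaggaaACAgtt
Snora73b (chr4:132352322-132352526, minus strand): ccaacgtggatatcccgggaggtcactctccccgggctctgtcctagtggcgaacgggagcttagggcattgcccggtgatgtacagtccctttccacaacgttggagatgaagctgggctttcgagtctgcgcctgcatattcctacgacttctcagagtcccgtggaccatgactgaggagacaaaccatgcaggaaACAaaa
The 205 bases of the 2 copies are identical at 198 positions (96.6%), so the value listed as *Snora73a* is uncertain as to the copy.

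The other hosted snoRNAs with a value differed less. *Snora74a*, an H/ACA box snoRNA in *Snhg4*, had values of 9.80, 8.26, 6.10, and 6.15 in the control and 14.6, 11.7, 12.0, and 11.5 in the KD. These groups did not overlap, and the log2 fold change was 0.70 ± 0.15 (adjusted p = 0.000188, limma), next to 0.04 for the listed exons of its host. Mature snoRNA and unspliced host cannot be told apart in such a row. In RNA-seq the control mean was 3.53 for *Snord99* and 22.7 for its host *Snhg12*. In chromatin RNA their counts were 88524 and 92751 for *Snord99* and 24 and 32 for *Snhg12*. *Snord22* in *Snhg1* was at 3.81, 5.34, 5.02, and 3.56 in the control and 6.92, 6.51, 6.09, and 5.10 in the KD, with a log2 fold change of 0.44 ± 0.18 (adjusted p = 0.0304, limma). Its groups overlapped between 5.10 and 5.34. The 3 snoRNAs of *Snhg12* with a value had log2 fold changes of 0.47 ± 0.23 for *Snora16a*, 0.37 ± 0.20 for *Snora61*, and 0.42 ± 0.23 for *Snord99* (adjusted p = 0.0641, 0.0863, and 0.0948, limma). They rest on 10 to 35 reads per control library, and the groups of *Snora61* were apart (2.87 to 3.44 and 3.71 to 4.86) while those of *Snora16a* and *Snord99* overlapped.

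Genes that overlap a host or start within 1000 bp of it are given beside it. *Slc3a2*, a subunit of amino acid transporters, starts 118 bp from *Snhg1* on the other strand. Its values were 82.6, 97.4, 84.8, and 84.8 in the control and 130.3, 132.8, 130.2, and 140.3 in the KD. The groups were apart, with a log2 fold change of 0.61 ± 0.062 (adjusted p = 8.55e-10, limma), next to 0.19 for *Snhg1*. *Zbtb37* starts 263 bp from the outermost RefSeq start of *Gas5*, on the opposite strand. It had overlapping groups of 18.2 to 21.6 and 19.3 to 24.0 (log2 fold change 0.16 ± 0.10, adjusted p = 0.159, limma). *Mcmdc2*, antisense to *Snhg6*, went from 3.4, 4.47, 7.18, and 5.20 to 3.58, 2.64, 2.72, and 2.55, a log2 fold change of -0.69 ± 0.22 (adjusted p = 0.00578, limma) with groups that overlapped. The microRNA *Mir1949* inside *Snhg4* was near the limit, at 0.544 to 2.58 and 2.11 to 2.49. No listed exon of these genes overlaps a listed exon of the host. The library kit marks strand, but no source used here gives the strand setting of the counting, so values of antisense pairs carry that uncertainty.

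**Figure D3:**
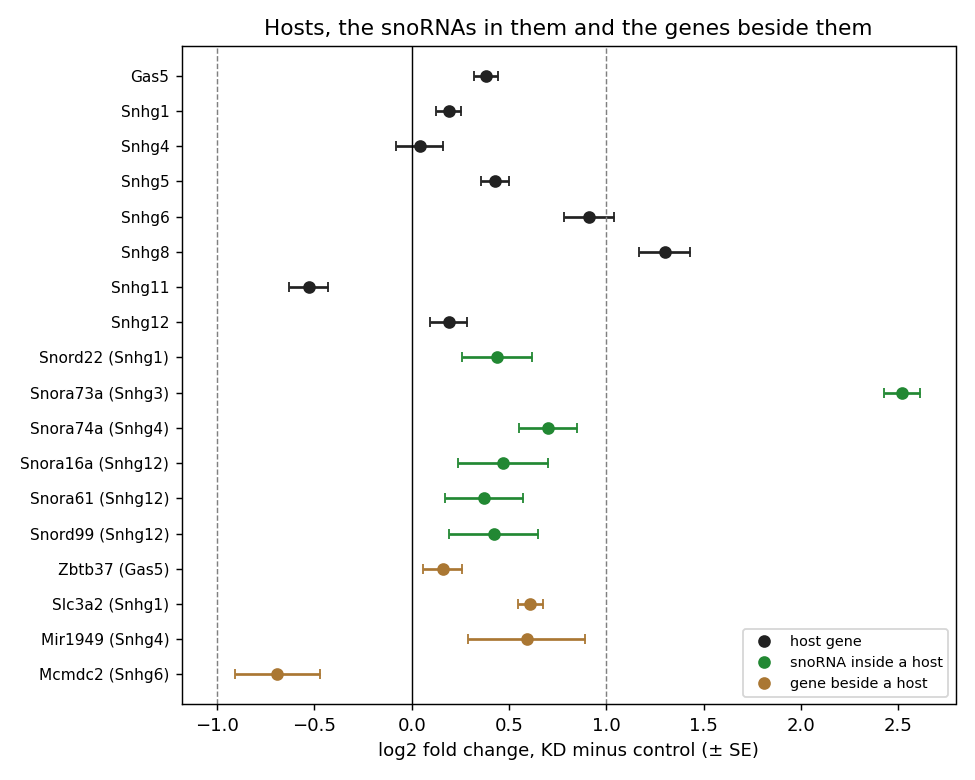
Log2 fold change (KD minus control, ± SE, n = 4 against 4) of the 8 hosts (black), the 6 snoRNAs inside hosts with a value (green, host in brackets), and 4 genes beside a host (brown), with dashed lines at -1 and 1. *Snora73a* at 2.52 and *Snhg8* at 1.30 lie beyond the line, and *Snhg11* at -0.53 and *Mcmdc2* at -0.69 lie below 0 on this library-size scale.

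Other genes of the pathway were counted by the same rule. Of 9 genes with a value on the list of other non-coding hosts, 1 was called higher and 1 lower, beside 8.07% and 20.6% of all genes. The median log2 fold change was 0.32, beside -0.03 over all genes. *Epb41l4aos* was measured at 8.17, 6.37, 5.74, and 7.25 in the control and 16.6, 16.2, 17.5, and 14 in the KD, with no overlap and a log2 fold change of 1.17 ± 0.14 (adjusted p = 1.48e-08, limma). The 1 lower call was *Mirg*, a transcript of the imprinted Dlk1-Dio3 cluster. It is known as a host of microRNAs, so its place on a list of snoRNA hosts is doubtful. Its values were 7.62, 8.43, 12.6, and 7.66 in the control and 3.09, 3.93, 4.79, and 3.77 in the KD. The groups had no overlap, and the log2 fold change was -1.11 ± 0.19 (adjusted p = 5.15e-06, limma). That call of *Mirg* was lost without control replicate 3, the library at 12.6, and with a pseudocount of 2, quantile, or spike-in scaling.

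Hosts that encode proteins were counted on a list of their own. The list holds 34 protein-coding hosts, mostly genes of ribosomal proteins and translation factors. Of these 34, 12 were called higher and 0 lower, beside 8.07% and 20.6% of all genes. At an unadjusted p below 0.05, and by edgeR and DESeq2, 0 were lower. By the adjusted p alone 33 were higher and 0 lower, beside 35.4% and 37.3% of all genes. The median log2 fold change was 0.94, beside -0.03 over all genes. *Ncl*, the gene of nucleolin, was the host not past the adjusted p, with overlapping groups and a log2 fold change of 0.04 ± 0.055 (adjusted p = 0.479, limma). *Rpl13a*, the host of several C/D box snoRNAs, was at 67.4, 62.3, 52.9, and 65.2 in the control and 206.1, 196.0, 210.4, and 179.5 in the KD (log2 fold change 1.67 ± 0.07, adjusted p = 1.46e-17, limma). *Rps12* was at 542.0, 490.3, 454.2, and 511.2 and at 1319, 1271, 1381, and 1104 (log2 fold change 1.34 ± 0.069, adjusted p = 8.87e-16, limma). The groups of both genes were apart. The called count of this list was 1 with quantile normalisation, where 1518 of all 15384 genes were called higher. The larger share of calls on this list than over all genes was thus not seen with that scaling. The size of these fold changes also depends on the scaling.

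Transcripts of snoRNP proteins were counted next. The list has 19 genes of snoRNP proteins and assembly factors with a value. Of these 19, 3 were called higher and 0 lower, beside 8.07% and 20.6% of all genes. At an unadjusted p below 0.05, and by edgeR and DESeq2, 0 were lower. By the adjusted p alone 18 were higher and 0 lower, beside 35.4% and 37.3% of all genes. The median log2 fold change was 0.55, beside -0.03 over all genes. The count of genes called higher was 1 with quantile normalisation and 19 with the spike-in scaling, beside 1518 and 7394 of all 15384 genes. *Znhit6*, an assembly factor, had overlapping groups and a log2 fold change of -0.01 ± 0.093 (adjusted p = 0.932, limma). *Nop10*, a core protein of H/ACA box complexes, was at 59.1 to 64.8 in the control and 148.1 to 169.7 in the KD (log2 fold change 1.40 ± 0.061, adjusted p = 3.43e-17, limma). *Ruvbl1*, an ATPase of the assembly machinery, was at 73.6 to 74.9 and 162.0 to 170.8 (1.15 ± 0.055, adjusted p = 1.88e-16), and *Rrp9*, a protein of the U3 complex, at 92.8 to 100.1 and 194.4 to 209.0 (1.05 ± 0.055, adjusted p = 1.39e-15). None of the 3 had overlapping groups. Of these 19 genes, 3 are also on the list of protein-coding hosts.

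Of 18 factors of nonsense-mediated decay, the pathway that clears many spliced hosts, 0 were called in either direction by limma, edgeR, or DESeq2. Of all genes, 28.6% were called by limma. At an unadjusted p below 0.05, 8 were higher and 5 lower, and by the adjusted p alone 7 and 4, beside 35.4% and 37.3% of all genes. Their median was 0.05, beside -0.03 over all genes. With the spike-in scaling 11 of the 18 were called higher, beside 7394 of all 15384 genes.

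For each host, other genes whose control-centred profile over the 8 libraries was nearest were found by the mean absolute log2 difference. They were *Wdr36* (0.0242) and *Fam220a* (0.0302) for *Gas5*, *Xpo1* (0.0248) and *Cnot2* (0.0251) for *Snhg1*, *Itfg2* (0.0491) for *Snhg4*, and *Dynlt1c* (0.0331) and *Rab3gap1* (0.0382) for *Snhg5*. *Snhg6* was nearest to *Alpk3* (0.0504) and *Tmem143* (0.0601), *Snhg8* to *Piga* (0.0613) and *Fopnl* (0.0683), *Snhg11* to *Gm10406* (0.0365) and *Gm2897* (0.0469), and *Snhg12* to *Mtmr9* (0.0268) and *Alas1* (0.0297). All of these are listed as protein-coding, and none is on a list used here. The profiles include the difference between the groups.

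In chromatin RNA the hosts spread much further. The table holds 3441643 and 3393923 counts, of which snoRNA rows take 63.8% and 60.7%. *Gas5* was counted 430505 and 426019 times, 12.5% and 12.6% of each library, and ranked 3 by count among all rows in both. The next host, *Snhg1*, was counted 87 and 176 times, so that *Gas5* exceeded it by 4948 and 2421 times, whereas its RNA-seq value in the control exceeded that of *Snhg1* by 1.18 times.

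The *Gas5* row covers more than its spliced exons. Its listed exons sum to 2554 bp, and the first of them holds 5 of the 8 snoRNAs that RefSeq places in the gene, none of which has a row of its own. Reads from these 5 snoRNAs therefore fall within the *Gas5* exon, and host and snoRNAs cannot be told apart in its count. They are shown from the same assembly with the C box TGATGA within the first 30 bases, where present, and the last CTGA, the D box, in capitals.
SNORD74 (chr1:161035394-161035473, plus strand): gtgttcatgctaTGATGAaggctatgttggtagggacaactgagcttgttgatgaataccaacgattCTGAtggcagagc
SNORD75 (chr1:161035850-161035911, plus strand): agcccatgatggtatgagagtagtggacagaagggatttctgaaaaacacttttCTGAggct
SNORD24 (chr1:161036057-161036139, plus strand): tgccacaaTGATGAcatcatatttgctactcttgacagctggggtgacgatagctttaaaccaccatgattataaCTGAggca
SNORD44 (chr1:161036682-161036741, plus strand): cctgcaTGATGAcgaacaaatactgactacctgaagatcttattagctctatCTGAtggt
SNORD78 (chr1:161036984-161037049, plus strand): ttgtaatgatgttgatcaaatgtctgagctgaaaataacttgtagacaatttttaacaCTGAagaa
Over the 20 C/D box snoRNAs of the hosts, 15 hold TGATGA within their first 30 bases and all 20 hold CTGA within their last 22. A match describes the letters alone.

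Of the other hosts, *Snhg5* had 51 and 86 counts, *Snhg4* 22 and 36, *Snhg12* 24 and 32, and *Snhg8* 21 and 23. Fewer were counted for *Snhg6* (4 and 21), *Snhg11* (6 and 12), and *Snhg3* (0 and 4). The libraries differed beyond sampling noise, and 8 of 9 hosts had the higher count in library 2. The table as a whole shifted too: protein-coding rows took 5.6% of library 1 and 9.4% of library 2, and snoRNA rows 63.8% and 60.7%. The higher counts in library 2 are thus not shown to be particular to the hosts. Per kb of exon and among the 4723 genes with at least 10 counts in both libraries, the percentile was 99.4 for *Gas5*, 96.5 for *Snhg1*, 94.7 for *Snhg5*, 93.3 for *Snhg12*, 89.3 for *Snhg8*, and 87.1 for *Snhg4*. *Snhg3*, *Snhg6*, and *Snhg11* were not ranked because a library was under 10 counts.

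The snoRNAs with rows of their own outnumbered their hosts, except *Snord47* in *Gas5*, *Snora24* in *Snhg8*, and *Snora73b* in *Snhg3*. *Snord99* had 88524 and 92751 counts, 3688 and 2898 times those of its host *Snhg12* and 2.57% and 2.73% of the libraries. *Snord87* had 46346 and 35443 counts, 11586 and 1688 times those of *Snhg6*. The other 3 snoRNAs of *Snhg12* were counted 2709 and 3203 (*Snora16a*), 1107 and 1049 (*Snora44*), and 2728 and 1765 times (*Snora61*).

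Within one intron-bearing host the counts of its snoRNAs thus spread widely, and *Snord99* was highest although it is the shortest of the 4 at 56 bases. *Snord22* reached 2555 and 2163 (29.4 and 12.3 times *Snhg1*), *Snora74a* 3839 and 3641 (174.5 and 101.1 times *Snhg4*), and *Snora73a* 8786 and 7079 where *Snhg3* had 0 and 4. *Snord47* in *Gas5* had 15604 and 11364, or 0.0362 and 0.0267 of the *Gas5* count. *Snora24* and *Snora73b* were listed at 0 in both libraries. No limit is given for them, because *Snora24* lies wholly inside the listed exon of *Snhg8* and *Snora73b* is nearly identical to *Snora73a*, and no source used here says how such reads were counted.

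The 2 snoRNAs with the most counts of their own are shown with the C and D boxes in capitals, as is *Snora24*, whose stretch is part of the *Snhg8* exon, with its ACA box in capitals. *Snord99* has no exact TGATGA within its first 30 bases.
Snord99 (chr4:132310703-132310758, plus strand): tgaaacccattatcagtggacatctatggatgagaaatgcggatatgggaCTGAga
Snord87 (chr1:9942470-9942543, minus strand): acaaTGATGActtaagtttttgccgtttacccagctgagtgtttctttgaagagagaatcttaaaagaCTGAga
Snora24 (chr3:123507937-123508066, minus strand): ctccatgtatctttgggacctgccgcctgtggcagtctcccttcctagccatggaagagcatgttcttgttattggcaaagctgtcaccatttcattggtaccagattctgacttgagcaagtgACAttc

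**Figure D4:**
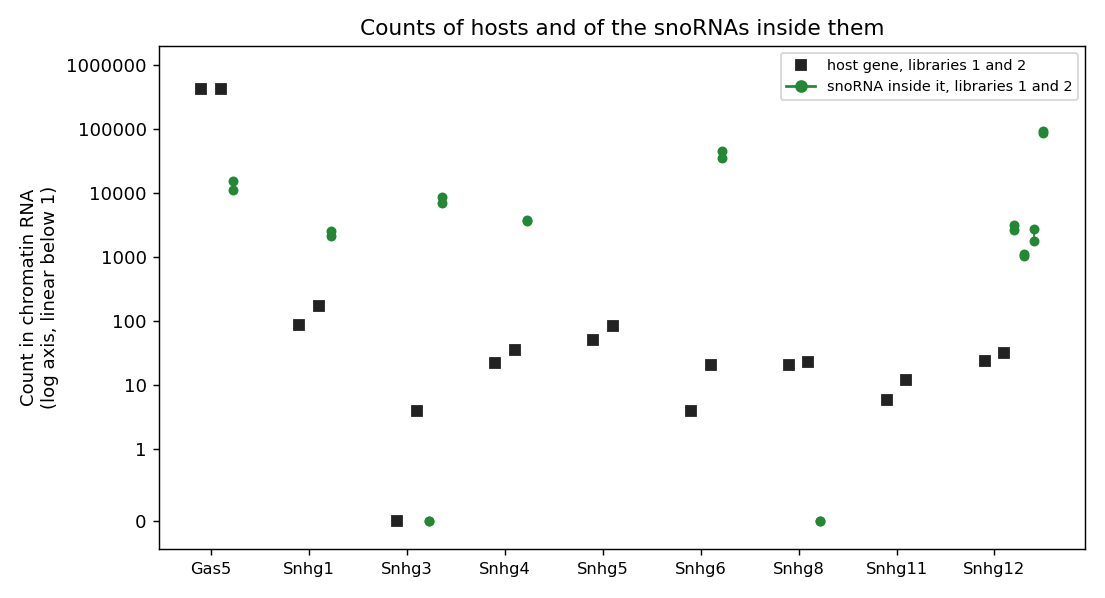
Counts in chromatin RNA (log axis, linear below 1) of the 9 hosts (black squares, library 1 left and library 2 right) and of the 11 snoRNAs inside them that have a row of their own (green points, 2 libraries joined). *Gas5* stands above all other rows shown, by a count that includes 5 snoRNA stretches, the other hosts lie between 0 and 176, and *Snord99* and *Snord87* lie at 35443 or more.

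FACT peaks lay at most of the hosts. The deposited nearest-gene assignment gives an SSRP1 peak to 7 of the 9 hosts and a SUPT16 peak to 7, beside 36% and 18.6% of the 15384 genes with a value. By overlap with the gene or the 1000 bp before its start, 7 hosts had an SSRP1 peak and 6 a SUPT16 peak, beside 32.8% and 17.9% of genes. The hosts were not tested against other genes. Peaks were called on both replicates together, so no spread between replicates can be given.

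*Gas5* and *Snhg1* were covered over their whole length. The SSRP1 peak at *Gas5* (chr1:161034287-161038598) ran from position -879 to position 3432 relative to the start, past the end of the gene. That at *Snhg1* (chr19:8723373-8728272) was 4900 bp long, began at position -114, and is also assigned to *Slc3a2* and *Snord22*. SUPT16 peaks covered the start of both genes as well and 47.0% and 63.5% of their spans.

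SSRP1 peaks covered the start base of 4 hosts (*Gas5*, *Snhg1*, *Snhg4*, and *Snhg12*) and SUPT16 peaks that of 2 (*Gas5* and *Snhg1*), beside 13.1% and 6.02% of genes. At *Snhg12* the SUPT16 peak began 3 bp after the start. In *Snhg3*, *Snhg5*, and *Snhg6* no peak covered the start: the first SSRP1 peak downstream of it began 80, 85, and 254 bp after it, and the first SUPT16 peak 136, 127, and 58 bp after it. A further SSRP1 peak assigned to *Snhg3* reached 8 bp into the end of the gene, and a further SUPT16 peak lay inside *Snhg5*. The other further peaks assigned to *Snhg3* and *Snhg5* lay before the start or past the end of the gene, as did a SUPT16 peak assigned to *Snhg6*. SSRP1 covered 67.5%, 69.0%, and 56.2% of these spans and SUPT16 75.8%, 30.3%, and 26.7%. At *Snhg4*, SSRP1 covered 42.2% of the gene from the start onward, and the nearest SUPT16 peak lay 1755 bp beyond its end.

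*Snhg8* and *Snhg11* had no peak of either subunit. The nearest SSRP1 peak was 427000 bp from *Snhg8* and 14106 bp from *Snhg11*, and the nearest SUPT16 peak 583072 and 23038 bp. The largest rise and the lowest fold change among the hosts on the library-size scale were thus both measured at genes with no peak. Whether peaks and fold changes are related was not tested.

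Counted by snoRNA, 22 of the 29 stretches inside the hosts lay under an SSRP1 peak and 14 under a SUPT16 peak. Among the 1301 other snoRNAs that RefSeq annotates, most of which have no row in these tables, the shares were 4.69% and 2.92%. All 8 snoRNAs of *Gas5* and all 8 of *Snhg1* were under SSRP1, and 4 and 5 of them under SUPT16. The 16 snoRNAs of these 2 genes share 2 long SSRP1 peaks and are not separate observations.

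**Figure D5:**
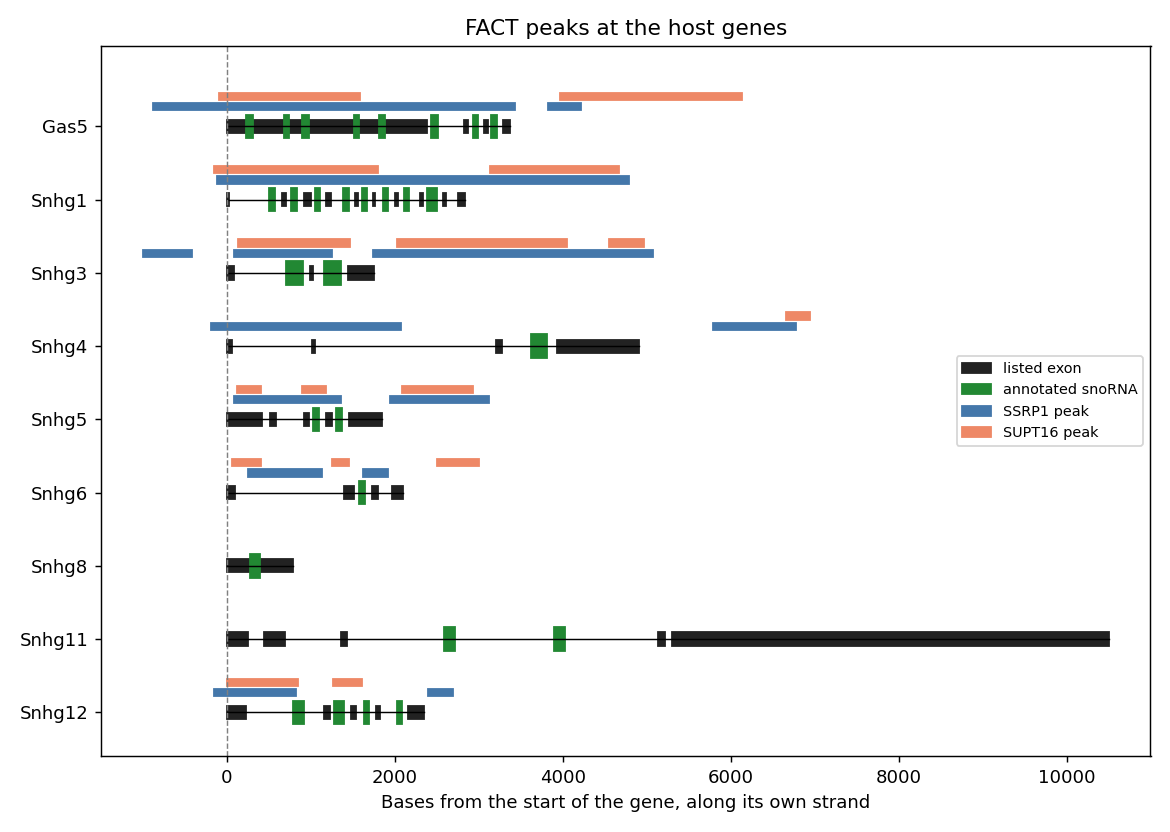
Listed exons (black), annotated snoRNAs (green), SSRP1 peaks (blue), and SUPT16 peaks (orange) of the 9 hosts, by distance in bases from the start of each gene along its own strand, with the start dashed. SSRP1 peaks span *Gas5* and *Snhg1* entirely, lie over or inside 5 further hosts, and are absent at *Snhg8* and *Snhg11*.

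The starts of the hosts were read because many snoRNA hosts begin transcription at a C within a pyrimidine run, the 5′ TOP start of ribosomal protein genes, and some carry a TATA box. RefSeq promoter sequences (250 bases before to 50 after the start, GRCm38.p6) were found for 7 of the 9 hosts. Each stretch runs from 45 bases before the annotated start base to 19 bases after it, with TATAAA and any run of a C and at least 4 further C or T that begins within 10 bases of the start in capitals.
Gas5 (chr1:161035121-161035185, plus strand): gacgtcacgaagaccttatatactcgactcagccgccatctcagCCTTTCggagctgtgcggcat
Snhg1 (chr19:8723442-8723506, plus strand): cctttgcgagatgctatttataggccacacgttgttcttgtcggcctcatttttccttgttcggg
Snhg3 (chr4:132353667-132353731, minus strand): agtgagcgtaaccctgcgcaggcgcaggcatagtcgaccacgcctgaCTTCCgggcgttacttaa
Snhg5 (chr9:88522878-88522942, minus strand): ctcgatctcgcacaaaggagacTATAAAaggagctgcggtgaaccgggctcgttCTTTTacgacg
Snhg8 (chr3:123508317-123508381, minus strand): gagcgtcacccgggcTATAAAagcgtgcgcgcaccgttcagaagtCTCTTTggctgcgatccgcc
Snhg11 (chr2:158375668-158375732, plus strand): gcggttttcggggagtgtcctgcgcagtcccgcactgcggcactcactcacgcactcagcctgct
Snhg12 (chr4:132308633-132308697, plus strand): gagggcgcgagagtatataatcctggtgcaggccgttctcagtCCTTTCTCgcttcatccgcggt
For *Snhg11* the RefSeq start lies 75 bp inside the start of the row used for counting, and for the other 6 the starts are the same base. RefSeq also lists a *Gas5* start at chr1:161034601 (-565 from the start used), with no TATAAA and no pyrimidine run near it. It was left out of the host shares, whereas the promoters they are set beside include every listed start. The SUPT16 peak at *Gas5* begins at chr1:161035071 and does not reach it.

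A pyrimidine run that includes a C at the start base itself was found in 2 of 7 (*Gas5* and *Snhg8*), beside 2.51% of the 32851 promoters of the table, and one that begins within 10 bases of the start in 5 of 7, beside 29.7%. TATAAA on either strand of the 300 bases was found in 4 of 7 (*Snhg1*, *Snhg3*, *Snhg5*, and *Snhg8*), beside 13.6%. The match of *Snhg1* was on the opposite strand only, at -29, and that of *Snhg3* lay after the start, at 22. On the same strand and 45 to 11 bases before the start TATAAA was found in 2 of 7 (*Snhg5* at -23 and *Snhg8* at -30), beside 2.31%. *Snhg8* is the host with both a TATAAA and a pyrimidine run that starts at the annotated base. A match is a description of letters, and the windows within 10 bases and before the start were chosen after the data were seen.

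The authors' mean log2 expression over the libraries of their KD and control table placed *Gas5* at 7.29, above 91.3% of the genes there, and *Snhg6* lowest at 3.55, above 34.5%. In their table of neural precursor cells and ES cells the means were 6.60 for *Gas5* and 3.11 for *Snhg6*, above 84.8% and 31.2% of genes. These are pooled means with no spread, no source used here says whether the libraries with or without spike-ins entered the KD and control table, and *Snhg3* was in neither table.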

How the data were processed

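RNA-seq libraries (RiboZero, directional kit) were aligned by the authors to mm10 with STAR (2.5.1b per the labels) and counted with featureCounts. The deposited RNA-seq signal per gene is reads divided by 1 factor per library, in a scaling labelled as library size (used throughout) and a scaling to spike-ins. The values labelled library size sum to 825584 to 909417 per control library and 1137293 to 1182584 per KD library. They are thus not scaled to the listed total alone. The paper names TMM normalisation, and rescaling by TMM gave nearly the same fold changes, so it is no separate check. All values are whole multiples of 1 read (100% within 0.1), so reads were recovered for edgeR 4.0.16 and DESeq2 1.42.0. All 15384 listed genes exceed 1 in at least 4 libraries. Chromatin RNA is deposited as raw counts (STAR 2.4.1b). The authors' log2 averages were used as means, and their fold changes, p-values, and exon usage tests were not used. Peaks were called by the authors with Bowtie2 2.2.6 and PePr and assigned with ChIP-Enrich. Peak starts are printed 1-based.

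Log2(value + 0.5) was fitted with limma 3.58.1 (trend, KD against control, n = 4 each, Benjamini-Hochberg over all genes). Fold changes on this scale understate those of low genes. Levels per kb use listed exon length, and counting error limits low values. Members and lists were chosen with earlier results of these data known. Named were all members, hosted snoRNAs, neighbours, the 2 nearest profiles, and, of each list, all called genes where 5 or fewer, otherwise the 2 largest. Alternatives were other tools, pseudocounts, scalings, filters, a replicate block, and leaving out each library. Of the list genes, 4 symbols were not in the table used for names and 2 had no value. A neighbour and a nearest profile are not reported here. MNase-seq, ATAC-seq, and NET-seq were not used here.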

Additional observations from a re-analysis of the deposited data

Results flagged for a closer look

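In KD replicate 1 the value of *Snhg4* was 15.4, and the other 3 KD libraries lay between 12.1 and 12.5. The gap to the nearest library was 0.887 of the range of the group, above Dixon's critical value for 4 values. The snoRNA inside it, *Snora74a*, was at 14.6 in the same library, with the others between 11.5 and 12.0 and a gap of 0.839. KD replicate 1 has the fewest reads of the KD group, 9433193. Of 28 groups of 4 libraries examined 2 were marked, and chance marks about 1 in 20. The cause was not tested.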

How the results depend on the processing

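The call of *Snhg8* and that of *Snora73a* held under every tool, pseudocount, scaling, filter, and left-out library used here. A scaling to the listed total alone was not among them. Because the values used here sum to more in the KD, fold changes would be lower on such a scale. Whether *Snhg8* would still be called there was not tested. The fit with a replicate block called the same numbers, 1 host and 1 hosted snoRNA. The same-numbered libraries did not deviate together (correlations from -0.057 to 0.018). This cannot exclude that they were prepared together, and the labels do not state a pairing. With spike-ins, 7 hosts, 6 hosted snoRNAs, 6 other non-coding hosts, 34 protein-coding hosts, 19 snoRNP factors, and 11 decay factors were called higher, and 0 other non-coding hosts lower. With quantile normalisation these higher calls were 2, 6, 3, 1, 1, and 0, with 0 other non-coding hosts lower, as with a pseudocount of 2. Of all 15384 genes, 7394 were called higher and 1082 lower with spike-ins, and 1518 and 1656 with quantile normalisation. By the adjusted p alone, chosen after seeing the data for the lists, 5 hosts were higher and 1 lower, 2 hosted snoRNAs, 33 protein-coding hosts, and 18 snoRNP factors were higher, other non-coding hosts were 3 higher and 3 lower, and decay factors 7 and 4. Leaving out 1 library gave 1 host higher, 11 to 15 protein-coding hosts higher, and 0 to 1 other non-coding hosts lower. The lower call on that list was *Mirg*, which is known as a host of microRNAs. Fold changes turned sign for *Snhg1* (-0.14, quantile), *Snhg11* (0.47, spike-ins), and *Snhg4* (-0.04 without KD replicate 1, and -0.04 to 0.07 over all left-out libraries). The cause was not tested beyond the scaling itself. SUPT16 peaks of at least 500 bp were assigned to 5 hosts in place of 7. Chromatin percentiles of single libraries were 87.1 to 90.7 for *Snhg4* and 99.4 to 99.6 for *Gas5*. Low counts of *Snhg3*, *Snhg6*, and *Snhg11* in chromatin RNA limit what can be said of them.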
